A study of Mus musculus with 24 samples.

Results

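The homeobox, Pax, Sox and Fox transcription factor genes were examined for differentially 5-hydroxymethylated regions (DhMRs) between mouse embryonic stem cells (ESCs) that expressed wild-type or phosphor-mutant Tet3. Genes were chosen by symbol: the autosomal protein-coding genes of the *Hox*, *Pax*, *Lhx*, *Nkx*, *Dlx*, *Irx*, *Msx*, *Pou*, *Sox*, *Fox* and sine oculis homeobox families in the GRCm38 annotation, without *Pou5f1* and *Sox2*, which gave 162 genes in 11 families. A DhMR was counted for a gene when it lay inside it, within 20 kb of it, or carried its identifier in the deposited lists. By this rule 246 of the 20726 deposited DhMRs belonged to the families, and 109 of the 162 genes had at least 1. The rule did not use the direction of the difference.

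The cells were ESCs of a mixed C57BL/6J-129V background that lacked *Tet1*, *Tet2* and *Tet3* (TKO), grown in 2i medium with leukemia inhibitory factor. Both lines carried a lentivirus with human Flag-tagged Tet3, wild-type in Wt25. In AA10 both serines of its catalytic domain that the paper reports as targets of the kinase cdk5 were changed to alanine. The paper also reports other phosphorylation sites of Tet3, which were not changed. Each line was a single puromycin-selected clone, with a similar level of Tet3 protein, so a difference between the constructs and a difference between the clones cannot be told apart. DNA with 5-hydroxymethylcytosine (5hmC) was precipitated with an antibody (5hmC-DIP) and sequenced in 3 libraries of each line. The deposited lists give the position of each 200 bp bin (198 bp of it are listed) with higher 5hmC in Wt25 or in AA10, and neither read counts nor fold changes nor *P*-values. No level per library, no size of a difference and no test can therefore be given from these lists for any gene. The depth of each library is not carried by the lists, and the identity of the cells could not be checked against marker genes. Intervals given with shares are 95% Wilson intervals, which cover counting error only and treat neighbouring bins as independent.

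Tet enzymes oxidise 5-methylcytosine to 5hmC, mostly at CpG sites, and 5hmC is common at enhancers and in bodies of active genes. Homeobox proteins bind DNA through a homeodomain, Sox proteins through an HMG box and Fox proteins through a forkhead domain. Pax proteins carry a paired domain, and Pou proteins a POU-specific domain next to a homeodomain. Many of these genes set the identity of cells along the body axis, in the neural tube, in the eye or in the gut, are silent in ESCs under Polycomb repression, and have CpG-rich start regions surrounded by long stretches of non-coding regulatory DNA.

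The sequences below are those of DhMRs at *Pax6*, *Foxp1* and *Pou3f2*, at start sites of family genes, and of the most CpG-rich DhMRs of each direction. All are read from the forward strand of GRCm38.p6, 5′ to 3′, with every CpG, the main target of Tet enzymes, in capitals. The *Pax6* DhMR, higher in Wt25, lay at chr2:105728803-105729000, 31439 bp beyond the 3′ end of *Pax6* and inside *Elp4*, and held 4 CpGs.
Pax6: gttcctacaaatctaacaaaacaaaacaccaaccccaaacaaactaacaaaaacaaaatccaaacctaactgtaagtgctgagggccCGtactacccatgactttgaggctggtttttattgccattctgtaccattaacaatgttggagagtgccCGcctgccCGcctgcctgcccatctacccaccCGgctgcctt
The *Pou3f2* DhMR, higher in Wt25, lay at chr4:22491403-22491600, 3037 bp upstream of the gene, with 11 CpGs next to a CA repeat.
Pou3f2: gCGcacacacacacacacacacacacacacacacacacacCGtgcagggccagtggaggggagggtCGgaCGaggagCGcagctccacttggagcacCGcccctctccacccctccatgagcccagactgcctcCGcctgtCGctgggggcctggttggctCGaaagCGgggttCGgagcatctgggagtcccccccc
The only *Foxp1* DhMR inside the gene, higher in AA10, lay in intron 5 at chr6:99099803-99100000 and held 3 CpGs.
Foxp1 intron 5: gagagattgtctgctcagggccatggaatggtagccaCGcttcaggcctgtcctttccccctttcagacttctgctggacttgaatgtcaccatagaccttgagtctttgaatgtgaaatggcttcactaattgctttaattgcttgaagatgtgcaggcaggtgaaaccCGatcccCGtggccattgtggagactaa
The nearest of its intergenic DhMRs, also higher in AA10, lay 28138 bp beyond its 3′ end at chr6:98897003-98897200, with 81.8% of its bases marked as repeat.
Foxp1 downstream: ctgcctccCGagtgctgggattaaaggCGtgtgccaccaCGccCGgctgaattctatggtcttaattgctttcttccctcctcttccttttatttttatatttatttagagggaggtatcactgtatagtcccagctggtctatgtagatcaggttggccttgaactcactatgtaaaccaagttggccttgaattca

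The CpG-richest DhMR higher in Wt25 was that of *Pax8*, in intron 2 at chr2:24474203-24474400, with 25 CpGs.
Pax8: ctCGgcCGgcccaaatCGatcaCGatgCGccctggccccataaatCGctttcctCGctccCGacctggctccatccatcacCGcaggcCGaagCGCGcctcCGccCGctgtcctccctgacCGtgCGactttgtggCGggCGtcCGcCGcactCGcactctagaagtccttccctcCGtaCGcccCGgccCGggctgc
It was followed by a DhMR 5628 bp beyond the 3′ end of *Foxa1* at chr12:57534803-57535000, with 18 CpGs.
Foxa1: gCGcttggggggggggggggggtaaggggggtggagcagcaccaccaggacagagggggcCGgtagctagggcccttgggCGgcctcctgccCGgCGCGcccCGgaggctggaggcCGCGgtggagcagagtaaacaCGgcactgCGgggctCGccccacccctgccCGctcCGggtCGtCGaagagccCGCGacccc
A DhMR at the start of *Pax9*, chr12:56691603-56691800, held 15 CpGs.
Pax9: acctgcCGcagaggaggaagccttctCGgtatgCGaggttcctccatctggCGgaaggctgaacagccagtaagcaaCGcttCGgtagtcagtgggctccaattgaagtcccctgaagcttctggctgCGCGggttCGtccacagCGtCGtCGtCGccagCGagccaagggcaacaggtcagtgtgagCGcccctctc
Among DhMRs higher in AA10, the promoter of *Foxe1* at chr4:46343403-46343600 held most CpGs, 17.
Foxe1: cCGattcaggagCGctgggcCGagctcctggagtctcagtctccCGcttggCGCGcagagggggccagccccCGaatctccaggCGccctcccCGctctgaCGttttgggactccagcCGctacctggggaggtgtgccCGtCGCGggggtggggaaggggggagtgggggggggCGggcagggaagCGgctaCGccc
It was followed by a DhMR between *Hoxa2* and *Hoxa3* at chr6:52168603-52168800, with 15.
Hoxa2-Hoxa3: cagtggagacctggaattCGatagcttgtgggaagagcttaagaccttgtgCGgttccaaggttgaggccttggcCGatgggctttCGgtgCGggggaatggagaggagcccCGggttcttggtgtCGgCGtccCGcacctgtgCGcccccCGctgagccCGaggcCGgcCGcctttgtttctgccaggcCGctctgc
The third was in the 5′ untranslated region of *Hoxa9*, chr6:52226803-52227000, with 13.
Hoxa9: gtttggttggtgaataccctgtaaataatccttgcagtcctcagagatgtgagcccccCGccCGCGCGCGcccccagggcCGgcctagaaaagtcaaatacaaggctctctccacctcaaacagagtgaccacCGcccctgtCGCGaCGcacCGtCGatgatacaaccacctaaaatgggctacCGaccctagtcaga

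Start sites carried DhMRs of either direction. Higher in Wt25 were those at *Hoxd12*, chr2:74675003-74675200 (9 CpGs), *Lhx6*, chr2:36105803-36106000 (6 CpGs), and *Irx2*, chr13:72628003-72628200 (9 CpGs).
Hoxd12: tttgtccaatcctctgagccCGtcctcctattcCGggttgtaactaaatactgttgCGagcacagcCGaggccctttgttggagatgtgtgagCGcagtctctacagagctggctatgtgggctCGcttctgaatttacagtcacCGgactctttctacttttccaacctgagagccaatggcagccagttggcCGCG
Lhx6: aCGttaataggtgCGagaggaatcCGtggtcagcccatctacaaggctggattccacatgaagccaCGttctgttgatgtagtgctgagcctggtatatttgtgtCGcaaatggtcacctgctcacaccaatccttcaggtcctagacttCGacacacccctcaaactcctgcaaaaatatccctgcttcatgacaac
Irx2: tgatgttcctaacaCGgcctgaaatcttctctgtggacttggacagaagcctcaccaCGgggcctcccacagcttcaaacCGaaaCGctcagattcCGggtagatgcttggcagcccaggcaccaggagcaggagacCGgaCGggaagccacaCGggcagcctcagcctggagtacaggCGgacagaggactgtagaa
Higher in AA10 were those at *Hoxa10*, chr6:52240803-52241000 (9 CpGs), *Hoxa7*, chr6:52219003-52219200 (4 CpGs), and *Pou2f2*, chr7:25132603-25132800 (9 CpGs).
Hoxa10: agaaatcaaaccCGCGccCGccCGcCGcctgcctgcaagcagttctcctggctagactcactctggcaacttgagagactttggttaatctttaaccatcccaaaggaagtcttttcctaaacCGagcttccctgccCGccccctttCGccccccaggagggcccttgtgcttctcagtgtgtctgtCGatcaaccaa
Hoxa7: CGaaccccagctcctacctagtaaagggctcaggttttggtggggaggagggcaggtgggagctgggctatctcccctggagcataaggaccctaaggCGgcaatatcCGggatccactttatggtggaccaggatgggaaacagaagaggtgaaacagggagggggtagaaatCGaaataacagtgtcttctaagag
Pou2f2: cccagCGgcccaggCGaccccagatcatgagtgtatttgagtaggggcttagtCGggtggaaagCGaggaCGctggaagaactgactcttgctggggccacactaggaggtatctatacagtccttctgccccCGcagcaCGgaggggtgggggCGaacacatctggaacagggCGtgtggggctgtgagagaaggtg

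The 246 DhMRs split into 151 with higher 5hmC in Wt25 and 95 with higher 5hmC in AA10. The Wt25 share was 61.4% (55.2 to 67.2), against 58.4% of all 20548 autosomal DhMRs, which lies within the interval. The other DhMRs on the same chromosomes, weighted by where the family DhMRs lie, gave 51.8%, which lies below it. Chromosome 6 stood apart in the whole series: of its DhMRs outside the families, 12.1% were higher in Wt25, against 61.0% on the other autosomes. Of the 40 family DhMRs on this chromosome 3 were higher in Wt25, and of the 206 on the other autosomes 148, or 71.8% (65.3 to 77.5). With dense runs of neighbouring bins also left out, which held no family DhMR, the share of the other DhMRs on those autosomes was 64.3%. Each family is therefore given beside the Wt25 share of the other DhMRs on its own chromosomes, weighted by where its DhMRs lie; the part of chromosome 6 in these results was not tested.

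By gene, 52 of the 162 had DhMRs of the Wt25 direction alone (32.1%, against 23.2% of all 20807 autosomal protein-coding genes), 33 of the AA10 direction alone (20.4%, against 15.5%), 24 had both (14.8%, against 7.26%) and 53 had none. A DhMR was thus assigned to 67.3% of the family genes and to 45.9% of all genes. The 33 genes of the AA10 direction alone include all 11 *Hoxa* genes, which share the 17 DhMRs of their cluster on chromosome 6. The share of 20.4% therefore counts this cluster repeatedly. Without the *Hoxa* genes, 52 genes had the Wt25 direction alone and 22 the AA10 direction alone. The family genes are short, with a median length of 5.59 kb against 17.6 kb, and among genes of up to 10 kb the shares were 66.4% of 110 family genes and 33.0% of 7177 others. Of the family DhMRs 80 were joined to a gene by the identifier alone, 57 higher in Wt25 and 23 in AA10. By position alone 99 family genes had a DhMR, a count for which no share over all genes is given here. Inside genes and their 20 kb flanks, which cover 10.9 Mb, the families had 15.2 DhMRs per Mb, against 11 per Mb for all genes. By family the density ran from 5.19 per Mb at *Pax* to 59.9 at *Hox*. The *Pax*, *Lhx*, *Nkx* and *Sox* genes had fewer than 11, and each of the other families had 13 or more.

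**Figure D1:**
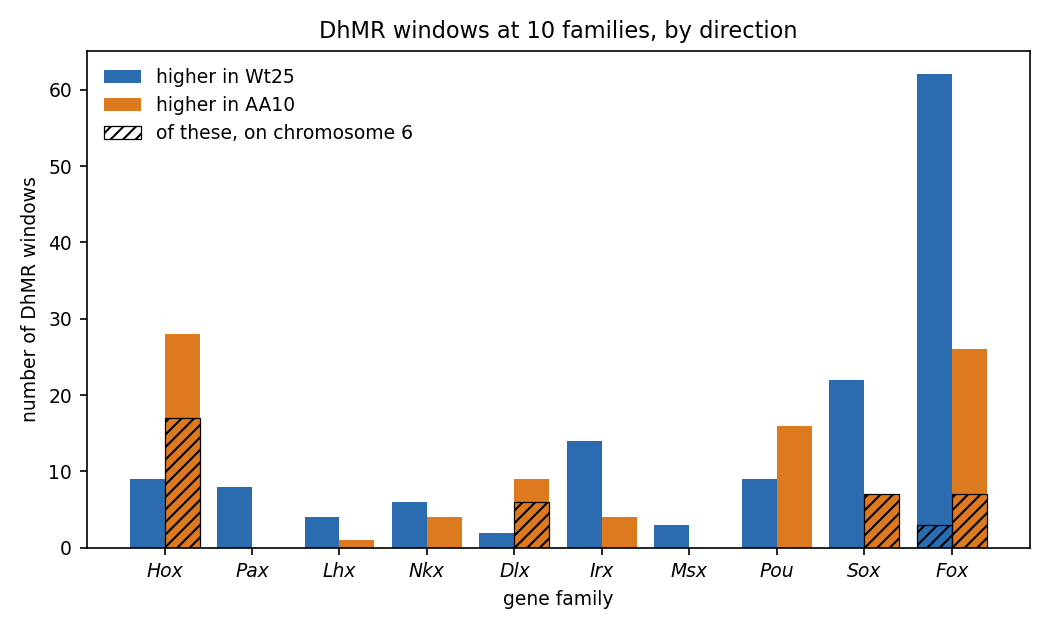
Number of DhMRs (y axis) at 10 gene families (x axis), higher in Wt25 in blue and higher in AA10 in orange, with those on chromosome 6 hatched. Every DhMR of the *Pax* and *Msx* families was higher in Wt25, while *Hox*, *Dlx* and *Pou* had more higher in AA10, with 17 of the 28 *Hox* and 6 of the 9 *Dlx* DhMRs of that direction on chromosome 6.

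Counts by direction varied from family to family. Higher in Wt25 were all 8 DhMRs of the *Pax* family (interval 67.6 to 100) and all 3 of the *Msx* family (43.9 to 100), where the other DhMRs on the same chromosomes gave 64.7% and 51.7%. Higher in Wt25 were also 62 of 88 *Fox* DhMRs (70.5%, 60.2 to 79.0, against 53.2%) and 22 of 29 *Sox* DhMRs (75.9%, 57.9 to 87.8, against 49.0%), a split that turned for *Sox* with a closer distance limit, as given with its genes. *Irx* had 14 of 18 (77.8%, 54.8 to 91.0, against 57.8%) and *Lhx* 4 of 5 (80.0%, 37.6 to 96.4, against 53.1%). The *Irx*, *Lhx* and *Msx* intervals hold the shares of their chromosomes. *Nkx* stood at its background, with 6 of 10 (60.0%, against 61.0%), though most of the 6 lay largely in repeats, as given with its genes. The reverse held for *Hox*, with 9 of 37 higher in Wt25 (24.3%, interval 13.4 to 40.1, against 40.4%), *Dlx* with 2 of 11 (18.2%, 5.14 to 47.7, against 39.2%) and *Pou* with 9 of 25 (36.0%, 20.2 to 55.5, against 64.6%). The *Pou* interval lies below the share of its chromosomes and the *Dlx* interval does not, while the *Hox* interval ends at that share, which was 40.1% without dense runs. The *Pou* family has no DhMR on chromosome 6, and its share of the chromosomes was 66.2% without dense runs. Of its 16 DhMRs higher in AA10, however, 8 lay at the single gene *Pou2f2*. The *Pou* split also depended on how DhMRs were given to genes. By the nearest start site the family had 8 higher in Wt25 and 9 in AA10 (47.1%). By gene, 4 *Pou* genes had the Wt25 direction alone, 2 the AA10 direction alone and 2 both. Without dense runs the share of the chromosomes was 62.1% for the *Msx* family and 57.2% for the *Lhx* family, and no DhMR was counted in more than 1 family.

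The *Hox* genes, which pattern the body along its head-to-tail axis from 4 clusters, had 59.9 DhMRs per Mb of gene and flank, the highest density of the 11 families. The *Hoxa* cluster on chromosome 6 had 17 DhMRs, all higher in AA10, where 87.9% of the other DhMRs of the chromosome had that direction. The *Hoxb* cluster on chromosome 11 had 4 higher in Wt25 and 1 in AA10, beside a Wt25 share of 62.1% on the chromosome. At the *Hoxc* cluster on chromosome 15, 7 of 9 were higher in AA10, although 59.3% of the other DhMRs there were higher in Wt25. The *Hoxd* cluster on chromosome 2 had 3 of each direction. Outside chromosome 6 the *Hox* family thus had 9 DhMRs higher in Wt25 and 11 in AA10 (45.0% Wt25, 25.8 to 65.8).

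**Figure D2:**
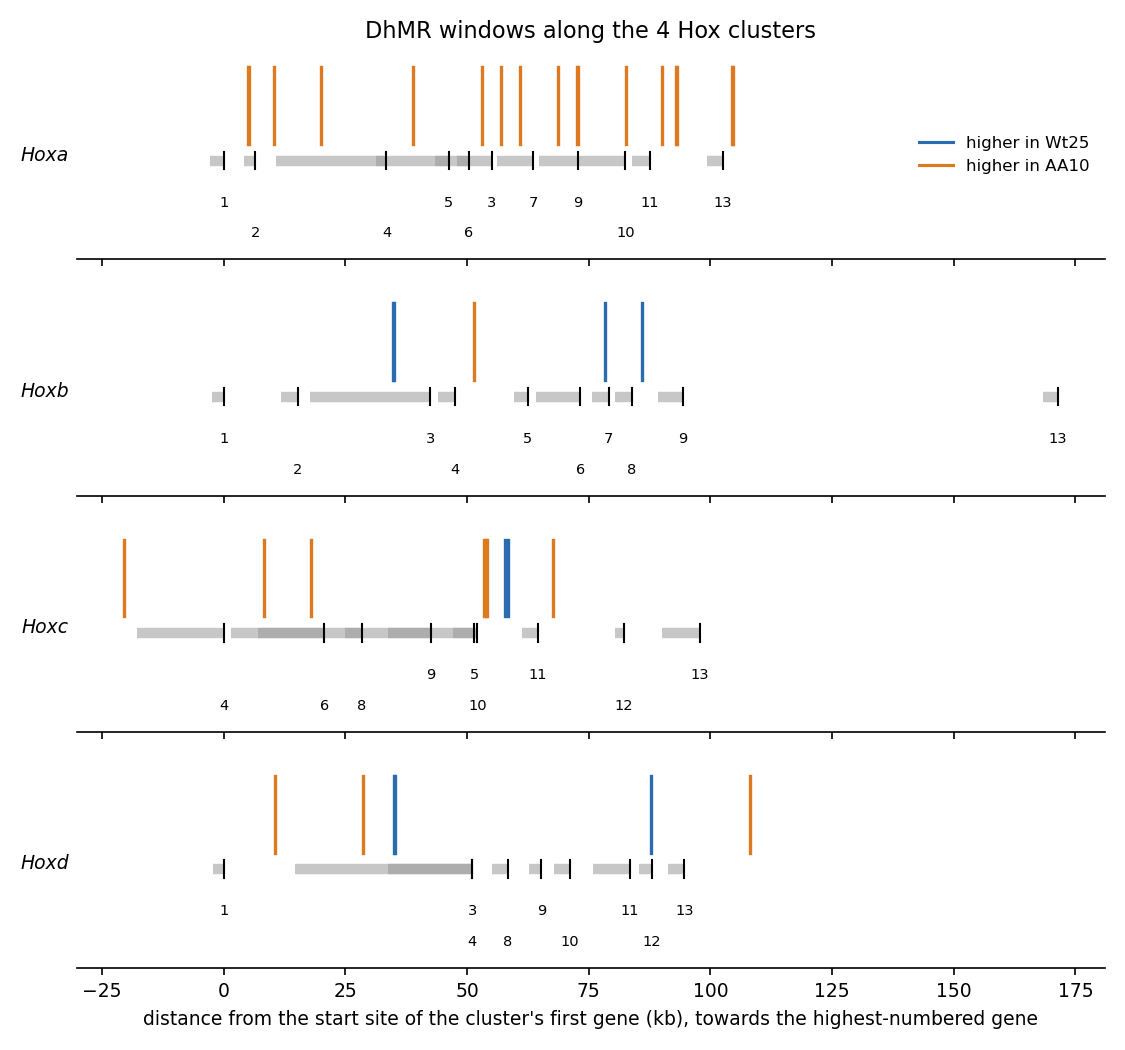
DhMRs (vertical lines, blue higher in Wt25 and orange higher in AA10) along the *Hoxa*, *Hoxb*, *Hoxc* and *Hoxd* clusters. The x axis is the distance in kb from the start site of each cluster's gene with the lowest number, grey bars are annotated gene bodies, black ticks are gene starts with the gene's number. All 17 *Hoxa* lines are orange and lie across the whole cluster, while the 5 *Hoxb* lines are blue but for 1.

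The 17 *Hoxa* DhMRs lay over the whole cluster, 15 of them between its outermost genes, and held 5.88 CpGs on average. In *Hoxa2* a pair of them lay in coding exon 2, with 6 and 11 CpGs. The *Hoxa9* DhMR printed above lay in its first exon. *Hoxa7*, *Hoxa10* and the non-coding genes *Mira*, *Mir196b* and *Hottip* had DhMRs in their promoters, and *Hoxa11* had 3 DhMRs 2393 to 5593 bp upstream of it. Since a DhMR in a cluster lies within 20 kb of several genes, counts such as 11 for *Hoxa3*, 10 for *Hoxa10* and 8 for *Hoxa7* and for *Hoxa9* share DhMRs and cannot be added.

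In the *Hoxc* cluster 3 of the AA10 DhMRs formed a region of 798 bp upstream of *Hoxc10*, the nearest of them 1196 bp from the gene. A pair of Wt25 DhMRs lay next to this region, between *Hoxc11* and *Hoxc10*, so *Hoxc5*, *Hoxc9*, *Hoxc10* and *Hoxc11* all had both directions. Intron 1 of *Hoxc6* held an AA10 DhMR with 12 CpGs. At *Hoxd*, the start of *Hoxd12* and a pair in the shared region of *Hoxd3* and *Hoxd4* were higher in Wt25, and DhMRs in *Hoxd3* intron 1, in the promoter of the non-coding gene *Gm14424* between *Hoxd3* and *Hoxd1*, and 13310 bp upstream of *Hoxd13* were higher in AA10. At *Hoxb*, intron 1 of *Hoxb3* and of *Hoxb7* and a position 1905 bp from *Hoxb8* were higher in Wt25. A DhMR upstream of *Hoxb4* was higher in AA10, which gave *Hoxb3*, *Hoxb4*, *Hoxb5* and *Hoxb6* both directions.

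The *Dlx* genes, which act in forebrain interneurons and craniofacial structures, lie in pairs. At *Dlx5* and *Dlx6* on chromosome 6 all 6 DhMRs were higher in AA10 and lay within 13 kb upstream of *Dlx6*, in the transcribed region or the promoter of its antisense gene *Dlx6os1*. At *Dlx1* and *Dlx2* on chromosome 2, a DhMR between both genes (422 bp beyond *Dlx1*) and another 82049 bp upstream of *Dlx2* were higher in Wt25. A pair 44249 and 47649 bp upstream of *Dlx2* was higher in AA10. *Dlx4* had a single AA10 DhMR and *Dlx3* none.

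*Pax* genes encode paired-domain regulators of eye, kidney, neural crest, thyroid and muscle. *Pax6*, the regulator of eye and forebrain development, had no DhMR inside it or within 20 kb of it. Its only DhMR was the Wt25 one printed above, which carried its identifier and lay in *Elp4*, a neighbour whose introns are known to hold distant enhancers of *Pax6*. *Pax2*, a kidney and midbrain regulator, had 3 DhMRs higher in Wt25 at 15445, 31445 and 49645 bp upstream, with 11, 6 and 5 CpGs. *Pax3*, which acts in neural crest and muscle precursors, had a Wt25 DhMR in coding exon 7 and another 3669 bp upstream, in the promoter of the non-coding gene *Gm33152*. *Pax8* and *Pax9* had the CpG-rich DhMRs near their starts. *Pax1*, *Pax4*, *Pax5* and *Pax7* had none.

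*Six4*, a regulator of muscle precursors, had 3 DhMRs, all higher in Wt25, including 1 in intron 1 with 7 CpGs. *Six6*, which acts in the eye and pituitary, had a pair of the same direction 22104 and 46304 bp beyond it, and *Six2*, which maintains kidney progenitors, had a Wt25 DhMR 27129 bp upstream. *Six3* and *Six5* had none. The *Msx* DhMRs, at regulators of limb and tooth development, lay 1020 bp upstream of *Msx1* and at 8529 and 9129 bp upstream of *Msx2*.

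The *Irx* genes lie in clusters on chromosomes 8 and 13. *Irx3* had 10 DhMRs higher in Wt25 and 1 higher in AA10. Of the Wt25 ones, 9 lay inside the neighbouring gene *Fto*, between 164125 and 237725 bp beyond the end of *Irx3*, and carried the identifier of *Irx3*; introns of *Fto* are known to contact the *Irx3* promoter. The other, 3536 bp upstream of *Irx3*, held 9 CpGs, and the AA10 one lay 227536 bp upstream. On the same chromosome *Irx5* had 1 Wt25 and 2 AA10 DhMRs and *Irx6* an AA10 one. On chromosome 13, *Irx2* had a pair of adjoining Wt25 DhMRs 620 to 820 bp upstream, in its promoter, and *Irx1* a Wt25 DhMR with 9 CpGs in coding exon 3.

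Of the *Lhx* genes, LIM-homeodomain regulators of neuronal identity, *Lhx9* had most DhMRs, a pair 11026 and 11226 bp upstream, higher in Wt25. This pair carried the identifier of *2310009B15Rik* and lay mostly in repeats (100% and 56.1% of bases). By the nearest start site the *Lhx* family had 2 DhMRs higher in Wt25 and 1 in AA10. *Lhx6*, which acts in cortical interneurons, had a Wt25 DhMR in its promoter and *Lhx5* another far upstream. *Lhx4* had the only AA10 DhMR, in intron 2. The 10 *Nkx* DhMRs lay at 8 genes, and no gene had both directions. *Nkx3-2*, a regulator of the axial skeleton, had 2 higher in AA10, including 1 in coding exon 2 with 11 CpGs, and *Nkx6-3*, which acts in the stomach, had 2 of that direction. The 6 higher in Wt25 lay singly, at *Nkx1-1*, *Nkx2-1*, *Nkx2-3*, *Nkx2-5*, *Nkx2-6* and *Nkx2-9*. All of these but the *Nkx2-3* one lay mostly in repeats, with 54.5% to 92.4% of bases. The AA10 ones of the family had at most 30.8%.

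**Figure D3:**
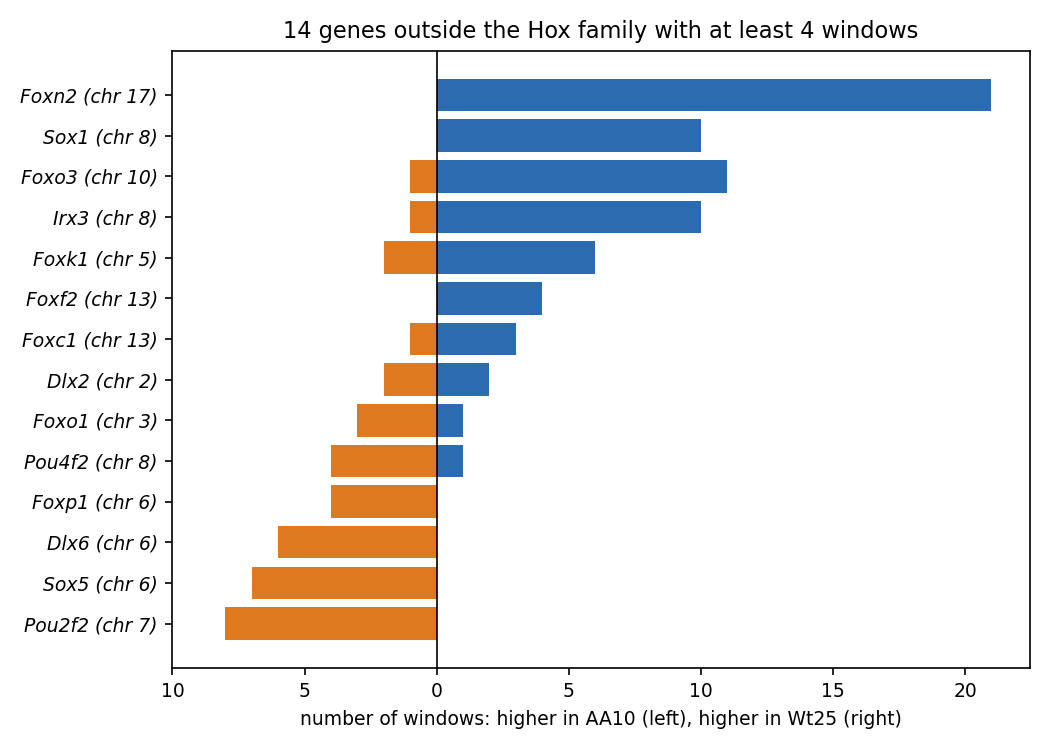
Number of DhMRs higher in AA10 (orange, left) and in Wt25 (blue, right) at 14 genes outside the *Hox* family with at least 4 DhMRs, with the chromosome of each. *Foxn2* had 21, all higher in Wt25, and *Pou2f2* had 8, all higher in AA10.

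Of the 25 *Pou* DhMRs 16 were higher in AA10. *Pou2f2*, which encodes the lymphoid and neural factor Oct2, had 8, all higher in AA10, on chromosome 7, where 75.7% of the other DhMRs were higher in Wt25. They were spread over 107 kb, 6 of them inside the gene. The DhMR printed above lay 189 bp before a start site, and another lay in the promoter of the non-coding gene *D930028M14Rik* within *Pou2f2*. *Pou2f3*, a regulator of tuft cells, had 3 DhMRs, all higher in AA10, which carried the identifier of *Arhgef12* or *Tmem136*. *Pou4f2*, which acts in retinal ganglion cells, had 4 higher in AA10 and 1 in Wt25, all 4410 to 61410 bp beyond its 3′ end. *Pou6f1* had 2 higher in Wt25 and 1 in AA10. *Pou3f2*, which encodes the neural factor BRN2, had its single Wt25 DhMR, and *Pou3f1*, *Pou4f3* and *Pou2f1* had Wt25 DhMRs alone.

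*Sox* genes take part in neural, cartilage and neural crest development. All 7 AA10 DhMRs of the family lay in *Sox5*, a regulator of cartilage and cortical neurons, on chromosome 6, spread over 513 kb of its 954 kb. The 22 *Sox* DhMRs outside *Sox5* were all higher in Wt25. Most of these lay away from the genes: the Wt25 share of the family, 75.9% in all, was 41.7% within 5 kb (5 higher in Wt25 and 7 in AA10) and 36.4% inside gene bodies (4 and 7). *Sox1*, a marker of neural progenitors, had 10 of them: 1 lay 8495 bp upstream with 13 CpGs, 1 inside the gene, and 8 between 1677 and 82077 bp beyond it. *Sox13* had 3, and *Sox6*, *Sox10*, *Sox12* and *Sox15* had 2 each. The *Sox10* ones included 1 in coding exon 4 with 7 CpGs.

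*Fox* genes held the most DhMRs, 62 higher in Wt25 and 26 in AA10. On chromosome 6 the counts were 3 and 7, and on the other autosomes 59 and 19 (75.6% Wt25, 65.1 to 83.8). *Foxn2* had 21, all higher in Wt25. Only 4 of these lay in the gene or within 20 kb, and the other 17 were intergenic, 58111 to 116711 bp upstream, joined to *Foxn2* by identifier. The 21 together held 3.05 CpGs on average. Without *Foxn2* the *Fox* family had 41 higher in Wt25 and 26 in AA10 (61.2%, 49.2 to 72.0). This interval holds the share given above for the chromosomes of the whole family, 53.2%, and the 57.4% without dense runs. *Foxo3*, an effector of insulin signalling and quiescence, had 11 higher in Wt25 and 1 in AA10. In *Foxo3* 9 lay inside the gene, 5 of them in the part from intron 3 to the 3′ untranslated region, and the AA10 one lay 1241 bp beyond it. Its paralogue *Foxo1* showed the other order, with 3 higher in AA10 and 1 in Wt25: 2 of the AA10 ones lay in intron 1.

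*Foxp1*, a forkhead repressor that acts in neurons and lymphocytes, had 4 DhMRs, all higher in AA10. Besides the intron 5 DhMR printed above, 3 were intergenic, 28138, 35538 and 123738 bp beyond its 3′ end, and carried its identifier. They held 1 to 4 CpGs, and 2 of the 3 lay mostly in repeats (73.2% and 81.8% of bases). The paper also examined *Foxp1* by PCR after 5hmC-DIP in the same lines and reports significant differences between them. Its listed primers span the intron 5 DhMR and the one 123738 bp beyond the gene. *Foxp1* lies on chromosome 6, as does *Foxp2*, which had an AA10 DhMR in intron 2. *Foxp4*, on chromosome 17, had an AA10 DhMR 31558 bp upstream, on a chromosome where 63.5% of the other DhMRs were higher in Wt25. On chromosome 6, *Foxi3* went the other way, with a pair higher in Wt25 at 1131 bp upstream and 6137 bp downstream, and *Foxj2* had 1 of each direction.

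**Figure D4:**
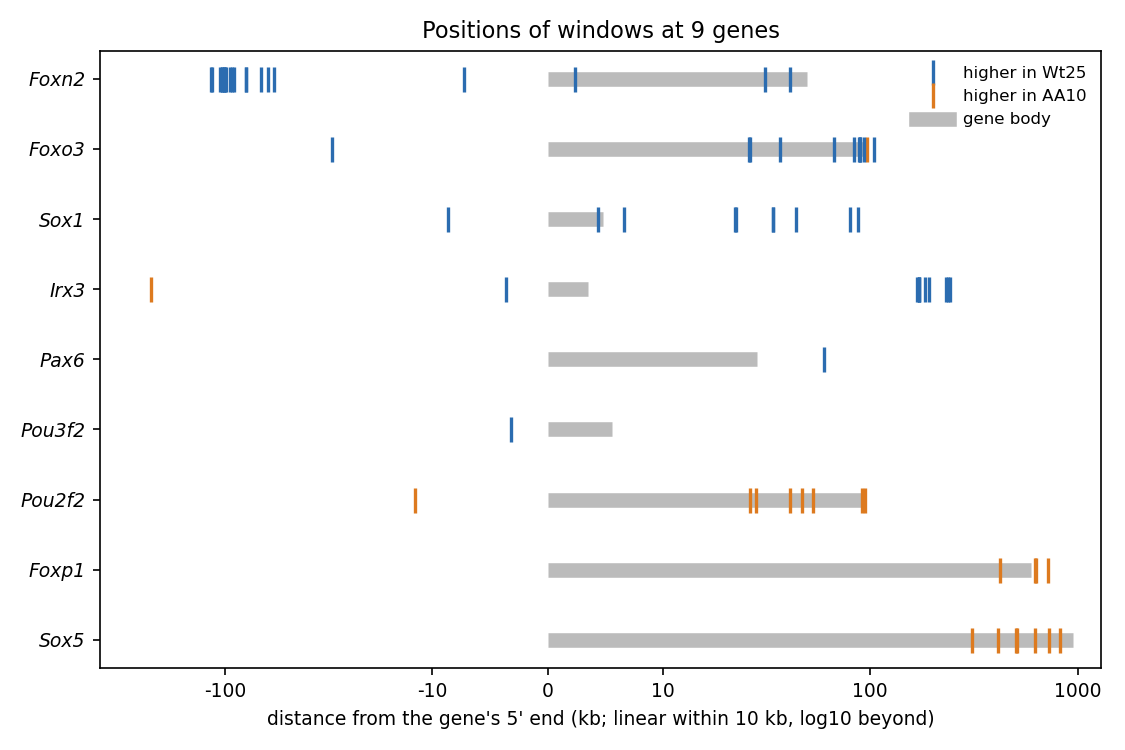
Positions of DhMRs at 9 genes, blue higher in Wt25 and orange higher in AA10, by distance in kb from each gene's annotated 5′ end (linear within 10 kb, log10 beyond); grey bars are gene bodies. The *Pax6* and most *Irx3* DhMRs lie beyond the 3′ end and most *Foxn2* DhMRs upstream, while those of *Foxo3*, *Pou2f2* and *Sox5* lie mainly inside the gene.

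The remaining *Fox* genes with several DhMRs included *Foxk1*, with 6 higher in Wt25 and 2 in AA10. Its 4 DhMRs inside the gene were higher in Wt25, and the others lay in *Sdk1*, at 221897 to 565297 bp upstream. *Foxf2* had 4, all higher in Wt25, and its neighbour *Foxc1* 3 higher in Wt25 and 1 in AA10. The endoderm regulators *Foxa1* and *Foxa2* each had 1 higher in Wt25 and 2 in AA10. At *Foxa1* the 18-CpG Wt25 DhMR and an AA10 one with 5 CpGs lay 5628 and 4828 bp beyond the gene. *Foxe1*, a thyroid regulator, had its promoter DhMR and another 50209 bp upstream, both higher in AA10, and the promoter of *Foxb1* was higher in Wt25.

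Promoters, taken as the last 1 kb before and the first 100 bp after a RefSeq start site, held 18 of the 246 family DhMRs, or 7.32% (4.68 to 11.3), against 2.88% of all autosomal DhMRs. Of the 18, 6 were higher in Wt25 and 12 in AA10; 8 of the 12 were on chromosome 6. On the other autosomes the split was 6 and 4, a Wt25 share of 60.0% (31.3 to 83.2) against 57.6% of all promoter DhMRs there. The 18 were not all at promoters of family genes. Those at family genes lay at *Lhx6*, *Hoxd12*, *Irx2* and *Foxb1* (Wt25) and at *Hoxa7*, *Hoxa10*, *Foxe1* and *Pou2f2* (AA10). The others lay in promoters of the non-coding genes *Gm33152* (Wt25), *Gm14424*, *Dlx6os1*, *Mira*, *Mir196b*, *Hottip* and *D930028M14Rik* (AA10). Introns held 33.3% of the family DhMRs, against 44.6% of all, and intergenic regions 49.6%, against 45.1%. By distance, 54 DhMRs lay within 5 kb of a start site of a family gene, 27 of each direction. Inside gene bodies 38 were higher in Wt25 and 37 in AA10, and outside them 113 and 58. Without chromosome 6 the shares inside genes and within 20 kb were 68.5% (55.3 to 79.3) and 70.0% (61.6 to 77.2) Wt25.

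**Figure D5:**
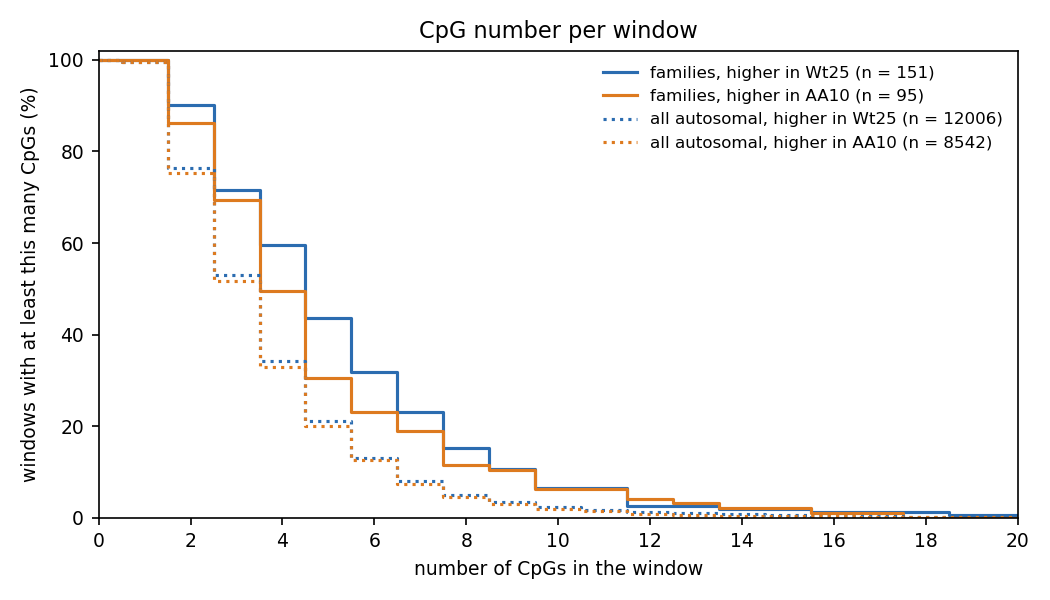
Share of DhMRs (y axis, percent) with at least the number of CpGs on the x axis, for family DhMRs (solid) and all autosomal DhMRs (dotted) higher in Wt25 (blue) or AA10 (orange). Both family curves lie above the dotted curves, with a mean of 4.77 CpGs for Wt25 and 4.26 for AA10 against 3.24 and 3.15.

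The family DhMRs held more CpGs on average than all autosomal DhMRs. They had 4.57 ± 3.31 CpGs (SD, n = 246 bins), against 3.20 ± 2.44 over all 20548 autosomal DhMRs, and 6.50% held 10 or more, against 2.17%. All held at least 1. The *Hox* DhMRs had 5.49 CpGs on average, and 40.5% held a CCGG site, against 21.6% of all. Repeats made up more than 50% of the bases in 13.0% of family DhMRs, against 26.0% of all, and in none of the 37 *Hox* ones. By direction, 151 Wt25 bins held 4.77 ± 3.41 CpGs and 95 AA10 bins 4.26 ± 3.14, and the difference was not tested.

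The core motifs of these factors were looked for on both strands of the DhMRs themselves. The homeodomain core TAATTA was in 2.44% of family DhMRs and 4.56% of all, the Pou octamer ATGCAAAT in 1.22% and 1.50%, and the Fox core TGTTTAC in 2.44% and 2.84%. The Sox cores ACAATG and ACAAAG were in 10.2% and 20.3% of family DhMRs, against 10.1% and 18.3%. None of these motifs contains another. TAATTA was in none of the 37 *Hox* DhMRs and ATGCAAAT in none of the 25 *Pou* DhMRs, and a match or its absence says only what letters the window holds. The *Pax6* DhMR printed above held ACAATG, and the *Foxa1* one TGTTTAC on the reverse strand. The table of RefSeq promoters, 250 bp before to 50 bp after the start, held 107 of the 162 genes, and 3 of these promoters were overlapped by a DhMR: those of *Hoxd12*, higher in Wt25, and of *Hoxa10* and *Pou2f2*, higher in AA10.

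A list of 82 other homeobox genes was set beside the families. It had 163 DhMRs, 116 higher in Wt25 and 47 in AA10 (71.2%, 63.8 to 77.6), and 52 of its genes had at least 1 (63.4%). Its DhMRs held 4.49 ± 3.13 CpGs, near the 4.57 of the families, and their density was 14.9 per Mb, near 15.2. The families and this list share 2 DhMRs. Outside the *Hox* genes the families had 142 higher in Wt25 and 67 in AA10 (67.9%, 61.3 to 73.9), an interval that overlaps that of the list. For these family DhMRs the share of the other DhMRs on the same chromosomes was 53.8%.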

How the data were processed

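5hmC-DIP was carried out in 3 Wt25 and 3 AA10 libraries. The authors aligned reads uniquely to GRCm38 (Ensembl release 87) with STAR, marked duplicates with Picard and called bins of 200 bp with MEDIPS from the triplicate libraries (*P* under 0.05, fold change of at least 1). Bins over IgG-DIP peaks, low complexity sequence or simple tandem repeats were dropped, and HOMER gave the annotation. Tool versions are not given in the sources used here. The deposited lists hold positions and, for 19953 of 20726 bins, an Ensembl gene identifier: no counts, signal or *P*-value. No test was therefore run, and the lists carry no depth.

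Genes came from GENCODE vM21, start sites, features and sequences from GRCm38.p6 and its RefSeq transcripts. Starts were changed to count from 1. A feature was assigned by the bin's midpoint, with promoters ranked before transcription ends, exons, introns and intergenic DNA. Dense runs were at least 20 bins of 1 direction with gaps of at most 10000 bp. Named genes were *Pax6*, *Foxp1*, *Pou3f2*, those with at least 4 DhMRs, the gene with most in each family, and those with a promoter DhMR or both directions; other genes were added after their values had been seen, and some items are not reported here. Families, lists, motifs and rules were chosen with earlier results of these data known. Functions were tested on simulated data. Python 3.11.15, numpy 2.4.6, scipy 1.17.1, pysam 0.24.0 and matplotlib 3.10.9 were used. RNA-seq, H3K27ac and input libraries were not analysed here. Alternatives were other distance limits, identifiers or positions alone, joined bins, bins outside repeats, RefSeq genes, nearest start sites, midpoints, a wider promoter, and leaving out chromosome 6 or, chosen after seeing the data, *Foxn2* or the *Hoxa* genes.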

Additional observations from a re-analysis of the deposited data

How the results depend on the processing

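The Wt25 share of the family DhMRs, 61.4%, changed with how close a bin had to lie: it was 52.1% of 117 bins at 72 genes within 5 kb and 50.7% of 75 bins at 41 genes inside gene bodies, against 246 bins at 109 genes in all. Without chromosome 6 it was 71.8% in all, 70.0% within 20 kb and 68.5% inside genes, so it changed little between these limits. No share over all DhMRs at the closer limits is given here. Also without chromosome 6, the share of genes with the Wt25 direction alone, among genes of a single direction, was 76.1% in place of 61.2%. *Sox* turned from 75.9% to 41.7% within 5 kb and 36.4% inside genes, where *Sox5* holds all 7 AA10 bins, and *Lhx* turned from 80.0% to 0% inside genes, where a single bin remains. The other 50 values of the main counts stayed within their limits, among them those with bins joined within 1 kb (60.6%), by identifier alone (67.0%), by position alone (56.6%), with RefSeq genes (61.2%) and without *Foxn2* (57.8%). Of the family values, 67 stayed within their limits and 5 others moved without turning. Some of these values could not change. No family DhMR lay in a dense run, so leaving out such runs left every value as it was. Leaving out chromosome 6 could not change a family with no DhMR on it. The limits were also wide: *Dlx* at 40.0% without chromosome 6 (18.2% in all) and *Lhx* at 50.0% within 5 kb counted as within them.

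No paired analysis was possible because the lists give a single call over the libraries and hold no value for any replicate. For the same reason leaving out each replicate and a stricter threshold were not run.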

Other observations

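Other homeobox genes of the comparison list with many DhMRs were mostly of the Wt25 direction. *Zfhx3*, a large zinc finger and homeodomain gene, had 21 higher in Wt25 and 4 in AA10, *Tshz2* had 18 and 1, *Meis2*, a partner of Hox proteins, had 9 and 1, and *Cux2*, a marker of upper cortical layers, had 7 and 2. *Gsx1*, which acts in the ventral forebrain, had 8, all higher in Wt25, in and around a gene of 2.25 kb. *Barx1*, a regulator of stomach and tooth development, had 5, all higher in AA10. These genes were chosen after their counts had been seen. In the families themselves, *Sox9*, *Sox17*, *Sox4*, *Sox11*, *Foxd3* and *Lhx2*, regulators of cartilage, endoderm, neural crest and forebrain, had no DhMR by any part of the rule.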
